A study of Mus musculus with 12 samples.

Results

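Histone genes were described in 12 messenger RNA libraries from mouse colonic mucosa. Members were the protein-coding rows whose symbol starts with Hist1h, Hist2h, Hist3h, Hist4h, H2af or H3f, and there were 77 of them among 38592 rows. They were taken apart as 68 replication-dependent genes, with symbols starting Hist, and 9 variant genes, with symbols starting H2af or H3f. The study compared 6 libraries from wild type mice with 6 from Sgo1-/+ mice, which carry 1 disrupted copy of the shugoshin gene that protects chromosome cohesion, and its design text gives chromosome instability in colon as the subject. Mice of both genotypes had received azoxymethane, a chemical that causes colon tumours, at 4 mg per kg, 2 times a week between weeks 8 and 12 of life. Tissue was taken at 9 months. The labels do not say whether each library came from a different mouse, so the spread between libraries of a genotype may be partly technical.

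Nucleosomes wrap DNA around the core histones H2A, H2B, H3 and H4, and the linker histone H1 binds the DNA between them. Replication-dependent histone genes sit in clusters, are transcribed mainly in S phase, and yield mRNAs that normally have no introns and no poly(A) tail but end just after a short stem-loop bound by the protein SLBP. Some of these genes also make poly(A)-tailed forms, chiefly in cells that have left the cycle. Variant histones are made throughout the cycle from spliced or poly(A)-tailed mRNAs: H3f3a and H3f3b encode the same H3.3 protein, H2afz and H2afv encode the H2A.Z pair, H2afx encodes H2A.X of the DNA damage response, H2afy and H2afy2 encode macroH2A, and H2afj encodes H2A.J. RNA without a poly(A) tail is poorly recovered by oligo(dT) purification. Messenger RNA was purified here with a kit, the labels do not say whether by oligo(dT), and the part of this step in the levels below was not tested.

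The stem-loop is shown first because the members are described below by where their transcripts end relative to it. A stretch of 16 bases with 6 matching stem pairs was searched in the protein-coding transcripts of GENCODE M21, build GRCm38, which is the assembly named mm10 in the submitters' processing notes. It was found in 41 of the 59 replication-dependent genes with such a transcript. Some of the others have short annotated transcripts, such as Hist1h4k at 312 bases and Hist1h2bl at 381. Their annotation may stop before the stem-loop, so a gene with none found need not lack it. In the lines that follow the capitals mark the stem-loop and the lower case its flanks, for the best detected carriers of each histone type and for the variant gene that has one.

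Hist1h1c (chr13:23739512-23739527, plus strand): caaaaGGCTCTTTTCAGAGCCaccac
Hist3h2a (chr11:58955172-58955187, plus strand): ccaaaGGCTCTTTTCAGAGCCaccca
Hist1h2be (chr13:23585531-23585546, minus strand): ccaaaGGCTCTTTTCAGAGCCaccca
Hist2h3c1 (chr3:96247327-96247342, plus strand): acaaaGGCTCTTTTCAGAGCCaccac
Hist4h4 (chr6:136803998-136804013, minus strand): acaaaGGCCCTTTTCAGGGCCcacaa
Hist1h4i (chr13:22040966-22040981, minus strand): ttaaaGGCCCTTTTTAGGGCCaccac
Hist1h4m (chr13:21812129-21812144, plus strand): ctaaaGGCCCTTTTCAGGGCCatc
H2afx (chr9:44335240-44335255, plus strand): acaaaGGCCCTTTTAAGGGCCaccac

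The search required GG and CC at the outer ends and C or T next to GG. It also required T and A beside the loop and a T early in it, so constancy of these bases is not a result. Among the bases free to vary, the inner stem followed the histone type. The form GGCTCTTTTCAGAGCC was held by 23 genes of types H1, H2A, H2B and H3, and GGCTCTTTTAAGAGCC by 5 more. All 12 H4 genes with a stem-loop had another inner stem, starting GGCCC or GGTCC, with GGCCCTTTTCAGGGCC in 7 of them, and 0 of the 29 replication-dependent carriers of other types had such a stem. The pattern of GGCTCT, any 4 bases and AGAGCC, which reads the same on both strands, was present in transcripts of 29 of 59 replication-dependent genes (49.2%), 0 of 9 variant genes and 24 of 21833 other protein-coding genes (0.110%). H2afx, whose mRNA is known in a stem-loop and a poly(A) form, carried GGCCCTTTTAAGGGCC, with the GGCCC stem of H4 genes and 822 bases of transcript after it.

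Promoters are shown for the pair of replication-dependent genes with shared upstream DNA, for the linker gene with the highest level and for the variant gene with the highest level. The windows hold 250 bases before and 50 after the start site, from RefSeq on GRCm38.p6, and capitals mark 3 motifs searched on both strands. The first is the box CCAAT, which reads ATTGG on the opposite strand. The second is the TATA box, searched as TATAAA, which reads TTTATA on the opposite strand. The third is the octamer ATTTGCAT, which reads ATGCAAAT on the opposite strand. CCAAT and the octamer may overlap where one ends and the other starts with AT.

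Hist1h2ac (chr13:23683910-23684209, minus strand): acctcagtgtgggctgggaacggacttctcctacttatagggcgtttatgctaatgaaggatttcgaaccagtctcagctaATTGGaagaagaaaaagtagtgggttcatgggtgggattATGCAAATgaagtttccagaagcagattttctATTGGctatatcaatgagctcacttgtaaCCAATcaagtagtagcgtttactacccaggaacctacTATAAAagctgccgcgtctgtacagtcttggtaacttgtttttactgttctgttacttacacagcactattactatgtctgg
Hist1h1c (chr13:23738557-23738856, plus strand): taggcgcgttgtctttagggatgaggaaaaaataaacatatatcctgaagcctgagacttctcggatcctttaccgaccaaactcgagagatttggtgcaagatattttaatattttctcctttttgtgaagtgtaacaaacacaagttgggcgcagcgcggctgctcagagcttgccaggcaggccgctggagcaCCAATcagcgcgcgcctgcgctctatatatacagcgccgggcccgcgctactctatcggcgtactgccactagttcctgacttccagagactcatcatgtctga
H3f3b (chr11:116024455-116024754, minus strand): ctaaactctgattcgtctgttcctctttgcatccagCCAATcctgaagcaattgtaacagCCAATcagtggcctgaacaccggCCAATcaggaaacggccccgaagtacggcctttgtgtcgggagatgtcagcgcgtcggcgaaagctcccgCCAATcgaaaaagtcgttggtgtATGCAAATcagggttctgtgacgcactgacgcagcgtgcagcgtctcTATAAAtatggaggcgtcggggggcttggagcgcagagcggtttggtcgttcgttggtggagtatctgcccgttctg

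The Hist1h2ac window runs across the whole stretch between this H2A gene and the H2B gene Hist1h2bc, whose starts lie 250 bases apart on opposite strands. Of the 77 members, 70 matched a RefSeq promoter, 62 replication-dependent and 8 variant. CCAAT stood in 53 of the 62 (85.5%), against 41.1% of the 27025 promoters in the table, and was found in every H1, H2A, H2B and H3 promoter matched but in 3 of 12 H4 promoters (25%). TATAAA stood in 35 of 62 (56.5%), against 15.7% of all. The octamer ATTTGCAT, the recognition sequence of OCT1, stood in 7 of 18 H2A and 7 of 16 H2B promoters, in 0 of the 28 promoters of the other types, and in 1.97% of all promoters. Since paired H2A and H2B genes share one stretch, their matches are not independent. Among the 8 variant promoters, only that of H3f3b held all 3 motifs.

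Most replication-dependent genes gave few or no counts. Libraries held 5711553 to 10198304 counts. Levels are in CPM, counts scaled to library size with TMM factors, and 1 CPM stands for few reads at this depth. Of the 68 replication-dependent genes, 17 averaged under 1 count, 31 averaged 1 to 10, and 20 averaged 10 or more. The 17 include 2 at 0 in all 12 libraries (Hist1h2al and Hist1h2ba). Over all libraries together, a count of 0 allows up to 0.031 CPM, for counting error only. The low-count filter used for testing kept 20 replication-dependent and 7 variant genes. The variant genes outside it were the testis-type H2afb1, at 0 in all libraries, and the macroH2A gene H2afy2, with a mean of 4.89 counts.

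A pair of genes made up most of the replication-dependent signal. Hist1h1c, a linker histone gene at chr13:23738807-23740366, and Hist1h2bc, an H2B gene at chr13:23684199-23692488, together held 69.0% to 80.3% of the summed CPM of the 68 genes in each library. Per kilobase of the longest annotated transcript, Hist1h2bc averaged 140 CPM and Hist1h1c 101 CPM, and the next replication-dependent gene, Hist1h4m, averaged 11.3 CPM. Both leading genes have annotated forms that go past the canonical end. The longest Hist1h1c transcript continues for 840 bases after the stem-loop and carries AATAAA in its last 50 bases. The longest Hist1h2bc transcript is spliced, 1156 bases long, holds no stem-loop by this search and has no AATAAA in its last 50 bases.

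Levels in CPM differed with the end annotated in GENCODE M21, which is not always the end of the deposited row. The deposited rows of Hist1h1e (chr13:23621755-23622502), Hist1h4c (chr13:23698060-23698454) and Hist1h4d (chr13:23581598-23581990) stop sooner after the stem-loop than their transcripts. These 3 genes are in the first set below by transcript, and for such genes the length used per kilobase is not that of the row. The 20 replication-dependent genes whose transcripts run over 100 bases past the stem-loop had a median level of 1.68 CPM, 10 of them passed the filter, and together they held 51.1% of the class level, of which Hist1h1c alone gave 37.4% and the other 19 genes 13.8%. The 21 genes whose transcripts stop within 100 bases of it had a median of 0.310 CPM, 6 passed the filter, and they held 5.97%. A further 18 genes with no stem-loop found held 42.0%, nearly all from Hist1h2bc, at 0.254 CPM in the median, and 9 genes with no protein-coding transcript in the annotation held 0.854%. The 10 genes of the first set that passed the filter include Hist1h1d, Hist3h2a, Hist4h4, Hist1h2be and Hist1h2ac, whose longest transcripts extend 4884, 1643, 2445, 1861 and 2010 bases past it. Of these, Hist3h2a and Hist4h4 have AATAAA in the last 50 bases, and Hist1h1d, Hist1h2be and Hist1h2ac do not. Genes of these sets are not replicates, several share sequence, and longer transcripts collect more reads at equal molecule number. Per kilobase the medians of the first 2 sets were 1.08 and 0.656 CPM, and many of their genes had few counts. Among genes that passed the filter, the 6 of the second set were at 4.50 to 11.3 CPM per kilobase. Those of the first set were at 1.03 to 8.05, apart from Hist1h1c at 101. Without that gene the first set thus did not lie higher there.

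**Figure D1:**
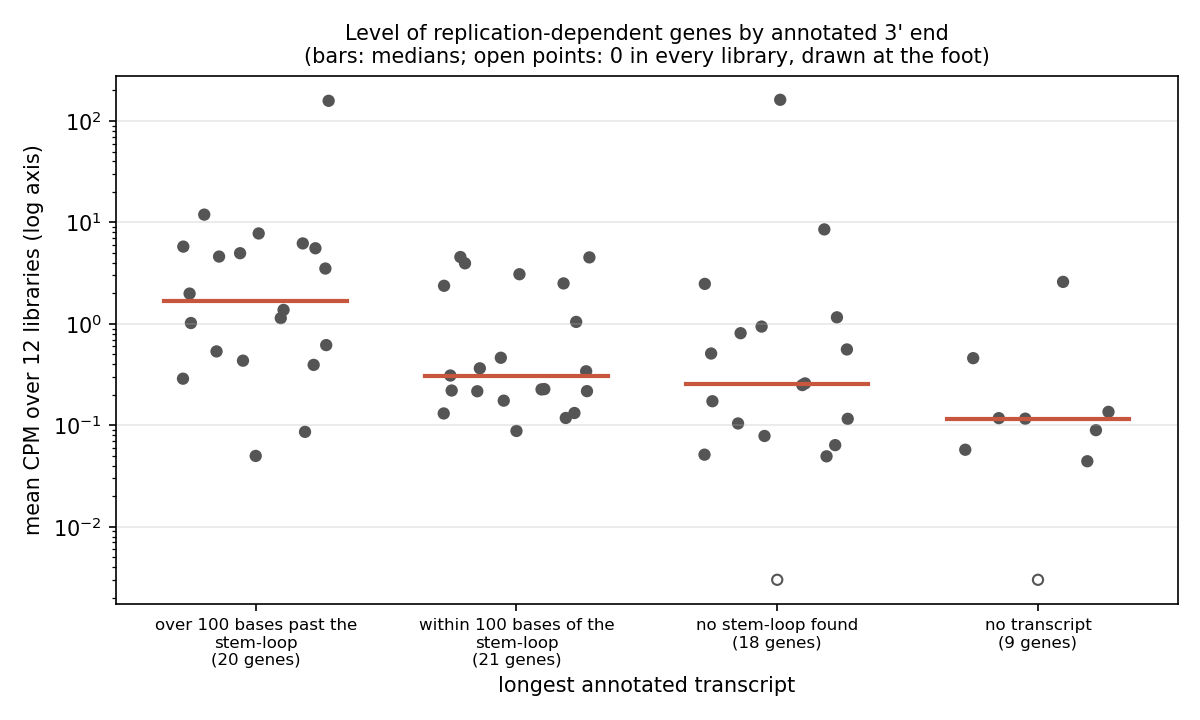
Mean CPM over the 12 libraries (log axis) of the 68 replication-dependent histone genes, grouped by where the longest annotated transcript ends. Each point is a gene and the bars are medians; the 2 highest points are Hist1h1c at 158 CPM in the first set and Hist1h2bc at 162 CPM in the third.

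Counts of several members cannot be tied to 1 gene. All 50-base words of Hist2h3c1 and Hist2h2aa1 occur in other genes, 89.8% of those of Hist1h4m do, 49.7% of those of Hist1h2bg and 30.1% of those of Hist1h2bc. The identifiers of Hist2h2aa1 and Hist2h2aa2 in the files sit at each other's positions in GENCODE M21. Hist3h2a lies inside Trim17 on the same strand, Hist2h3c1 inside the transcript Gm20634, and H3f3a overlaps an opposite-strand noncoding RNA over 6916 bases. Whether counting used strand is not stated in the labels or headers, so these values stand for the locus as deposited.

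The class levels of the genotypes overlapped. Summed over the 68 replication-dependent genes, wild type libraries ranged from 411 to 517 CPM with a median of 444, and Sgo1-/+ libraries from 325 to 463 with a median of 392. The difference of the means was -51.4 CPM, against an SD of 47.8 between replicates, and became 44.0 CPM when libraries were scaled by total counts alone. Summed over the 9 variant genes, wild type libraries ranged from 601 to 775 CPM with a median of 696 and Sgo1-/+ libraries from 690 to 841 with a median of 730, a difference of 63.2 CPM against an SD of 62.3, and of 225 CPM when scaled by total counts alone. Without Hist1h1c and Hist1h2bc the replication-dependent sums were 90.7 to 135 CPM in wild type and 76.1 to 121 CPM in Sgo1-/+. By type, the replication-dependent medians in wild type and Sgo1-/+ were 171 and 162 CPM for H1, 33.0 and 30.3 for H2A, 193 and 167 for H2B, 9.88 and 6.78 for H3, and 21.7 and 21.3 for H4.

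No histone gene passed the test between genotypes. With edgeR's quasi-likelihood test and Benjamini-Hochberg adjustment over 13889 genes, 0 genes (0%) had an adjusted p under 0.05, and among the 27 members tested the lowest was 0.517. At an unadjusted p under 0.05, edgeR listed 1340 genes (9.65%; 4.56% higher and 5.08% lower in Sgo1-/+), 2 of 20 replication-dependent members (10%, both lower) and 0 of 7 variant members. DESeq2 called 30 of 13850 genes (0.217%) and 0 members. Of the replication-dependent members 8 had a log2 fold change above 0 (Sgo1-/+ over wild type) and 12 below, with a median of -0.13; 49% of all genes tested were above 0 and 51% below, and their median was -0.0056. Of the variant members 5 were above 0 and 2 below, with a median of 0.13. In CPM the genotypes overlapped for every member tested, and among all genes they did not overlap for 0.209% higher and 0.13% lower in Sgo1-/+. Scaling by total counts alone moved the median of all genes to 0.31, and the medians became 0.20 for replication-dependent and 0.45 for variant members, so the former is then above 0 but still below the median of all genes. The replication-dependent median also turned to 0.026 without the 3 libraries of highest mitochondrial-like share, was -0.069 with that share as a covariate, and ranged from -0.039 without wild type replicate 5 to -0.29 without Sgo1-/+ replicate 2. It was -0.21 without wild type replicate 1, -0.20 without Sgo1-/+ replicate 1 and -0.25 without Sgo1-/+ replicate 5. The variant median was 0.20 without wild type replicate 4, 0.081 without wild type replicate 5 and 0.026 in the libraries lacking the suffix described below.

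**Figure D2:**
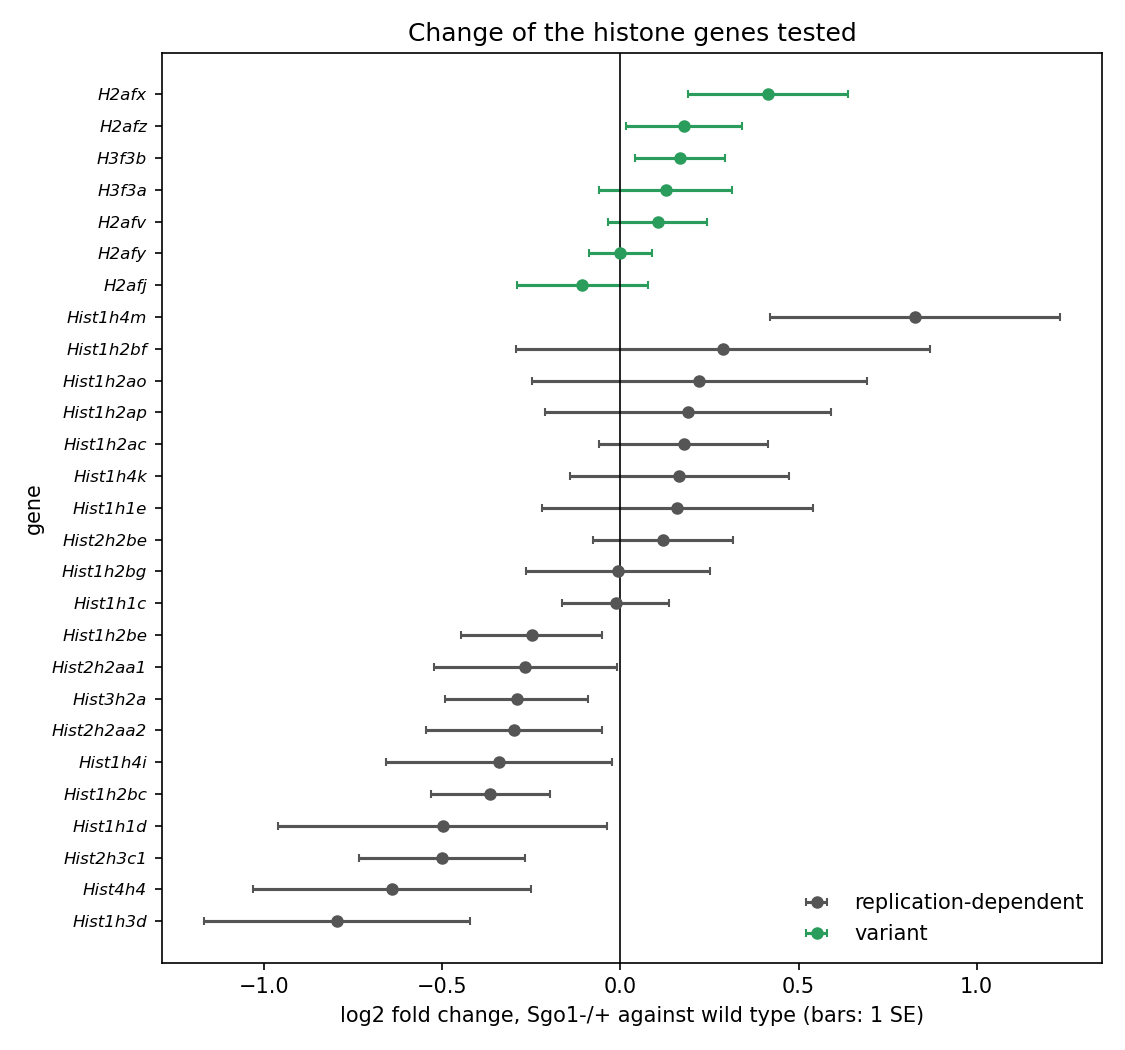
Log2 fold change between genotypes (horizontal axis, Sgo1-/+ over wild type, edgeR) of the 27 histone genes tested, with bars of 1 SE. Variant genes run from -0.11 to 0.41 and replication-dependent genes from -0.79 to 0.83, with wide bars for the genes of low level.

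H3.3 mRNA was the most abundant of the variants. H3f3b (chr11:116021912-116027962) ranged from 309 to 428 CPM in wild type with a median of 399, and from 349 to 524 CPM in Sgo1-/+ with a median of 423. It alone held 50.02% to 62.9% of the variant level in each library. The wild type libraries lay close together except replicate 5 at the low end, and the log2 fold change was 0.17 ± 0.13 (SE), with an adjusted p of 0.685. H3f3a (chr1:180800832-180813943), the other H3.3 gene, ranged from 63.1 to 112 CPM in wild type (median 87.5) and from 52.7 to 125 in Sgo1-/+ (median 99.8). Its groups overlapped over nearly their full range, with a log2 fold change of 0.13 ± 0.19. Within a library H3f3b exceeded H3f3a 3.78 to 6.53 times in wild type and 2.80 to 8.65 times in Sgo1-/+, and per kilobase the median ratio was 4.75. Both genes were detected in all 12 libraries, and their ratio overlapped between the genotypes.

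**Figure D3:**
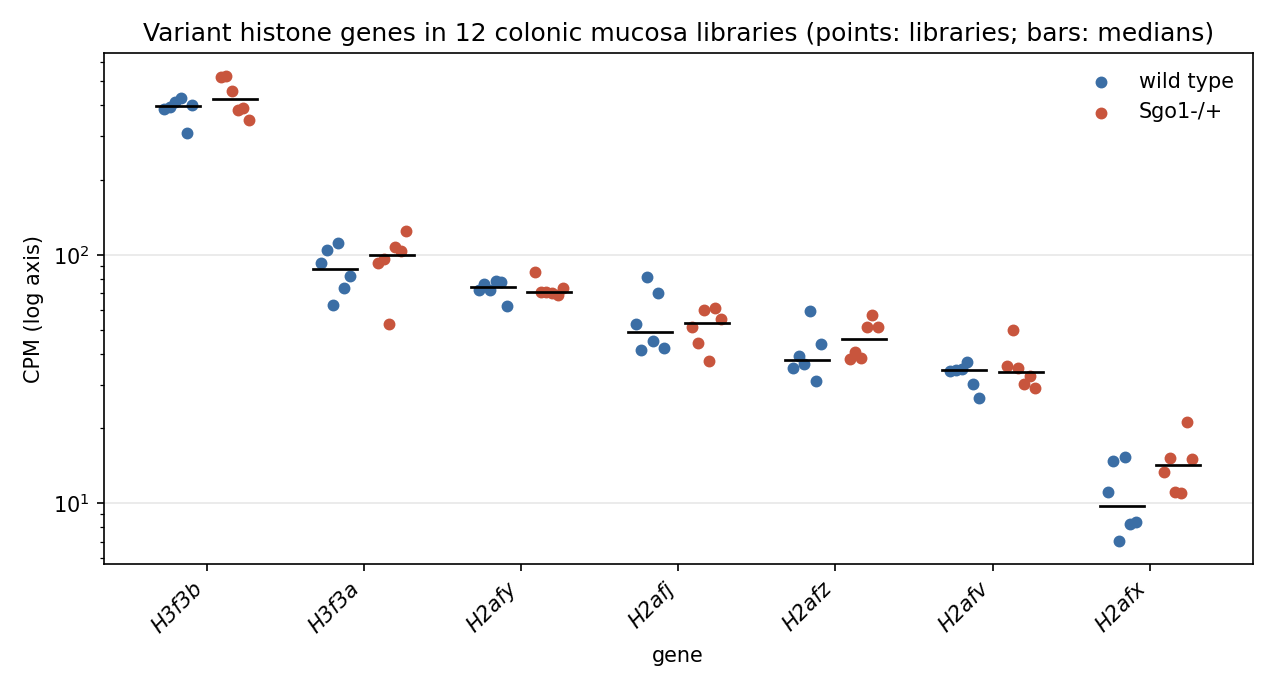
CPM (log axis) of the 7 variant histone genes tested, in 6 wild type and 6 Sgo1-/+ libraries; each point is a library and each bar a median. H3f3b lies above the other variants in every library, and the genotypes overlap for every gene.

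H2afz (chr3:137864487-137866922), which encodes H2A.Z.1, ranged from 31.1 to 59.3 CPM in wild type (median 37.7) and from 37.9 to 57.4 in Sgo1-/+ (median 45.8), with a log2 fold change of 0.18 ± 0.16. The second H2A.Z gene H2afv (chr11:6427229-6444443) ranged from 26.5 to 37.2 CPM (median 34.2) and from 29.0 to 49.7 (median 33.7). Its change of 0.10 ± 0.14 rested on Sgo1-/+ replicate 2, without which it was -0.0036. The H2afz to H2afv ratio was 1.02 to 1.65 in wild type and 0.819 to 1.76 in Sgo1-/+, and the median per kilobase was 1.71. It lay at 1.60 to 1.76 in 5 of the 12 libraries, 2 wild type and 3 Sgo1-/+, and at 0.819 to 1.14 in the other 7.

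H2afx (chr9:44334715-44336071) was the lowest of the variants tested and had the largest change among them. Wild type libraries ranged from 7.04 to 15.3 CPM with a median of 9.70, and Sgo1-/+ libraries from 11 to 21.1 CPM with a median of 14.2. All 6 Sgo1-/+ libraries lay above the wild type median, while 2 wild type libraries lay above the Sgo1-/+ median. The log2 fold change was 0.41 ± 0.22, with an adjusted p of 0.565 by edgeR (unadjusted p of 0.0874), and was 0.23 with mitochondrial-like share as a covariate. H2afy (chr13:56073619-56136361), the macroH2A1 gene, varied least: 62.1 to 78.6 CPM in wild type (median 74.4) and 68.8 to 85.0 in Sgo1-/+ (median 70.9), with a log2 fold change of -0.000053 ± 0.088. H2afj (chr6:136808248-136810074) ranged from 41.4 to 81.7 CPM (median 48.8) and from 37.5 to 61.1 (median 53.0), a change of -0.11 ± 0.18 that was 0.044 without wild type replicate 3.

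Among the replication-dependent genes, Hist1h2bc combined a high level with a change past the unadjusted threshold. It ranged from 145 to 257 CPM in wild type with a median of 171, and from 108 to 183 in Sgo1-/+ with a median of 138. Of the 6 Sgo1-/+ libraries, 3 lay below the lowest wild type library, and the highest value of all was wild type replicate 3. The log2 fold change was -0.36 ± 0.17, with an adjusted p of 0.517 by edgeR (unadjusted p of 0.0484). The change moved to -0.24 (unadjusted p of 0.151 by edgeR) without wild type replicate 3, to -0.20 (0.183) with mitochondrial-like share as a covariate, and to -0.042 (0.807) with total counts alone, so that it passed the unadjusted threshold under none of these. Its divergent neighbour Hist1h2ac, on the other side of the promoter printed above, ranged from 3.26 to 7.54 CPM (median 5.06) and from 3.61 to 8.38 (median 5.71), with a change of 0.18 ± 0.24. The Hist1h2bc to Hist1h2ac ratio was 29.0 to 47.1 in wild type and 19.5 to 30.1 in Sgo1-/+, and the median per kilobase was 64.3. Genes that share one stretch of upstream DNA thus differed strongly in mRNA level in all 12 libraries. Hist1h1c ranged from 143 to 184 CPM (median 157) and from 112 to 220 (median 156), with a log2 fold change of -0.013 ± 0.15 and a wider spread in Sgo1-/+.

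**Figure D4:**
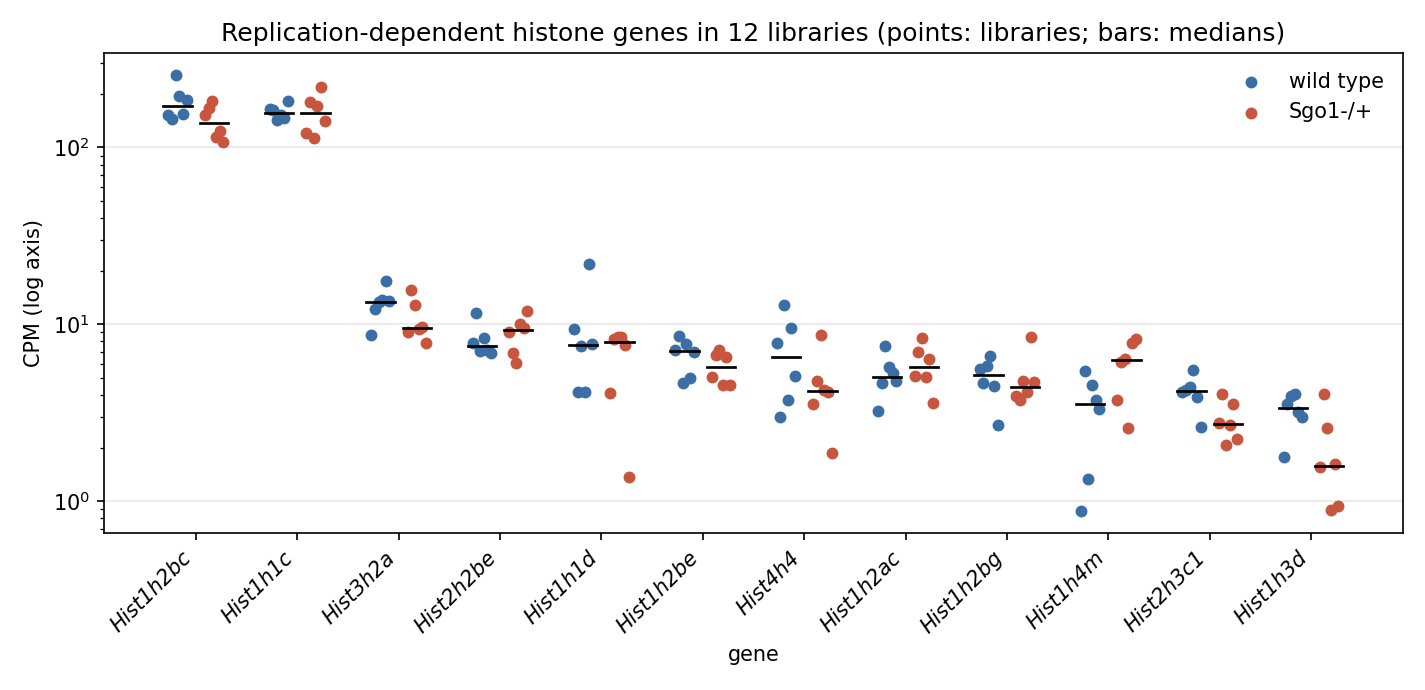
CPM (log axis) of 12 replication-dependent histone genes in 6 wild type and 6 Sgo1-/+ libraries; each point is a library and each bar a median. Hist1h2bc and Hist1h1c lie above 100 CPM in every library, and the other genes below 23 CPM.

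Unequal partners were also seen in other pairs of divergent genes. The members formed 13 such pairs with starts under 1000 bases apart, 12 of them H2A with H2B at 167 to 305 bases. Hist2h2be averaged 8.54 CPM beside 0.341 for Hist2h2ac, Hist1h2bg 4.97 beside 0.288 for Hist1h2ae, Hist1h2ap 4.56 beside 0.810 for Hist1h2br, and Hist1h2bf 2.51 beside 0.220 for Hist1h2ad. The better detected partner was of type H2B in some pairs and H2A in others. In 6 of the 13 pairs at least 1 partner averaged 10 or more counts, and the levels in the other 7 pairs rest on few counts. Picking pairs by their higher partner favours unequal ones. Of the 50-base words of Hist1h2ap and Hist1h2br, 93.1% and 88.7% occur in other genes, so their counts cannot be tied to 1 gene.

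The other H2A and H2B genes tested stayed below 18 CPM. Hist3h2a (chr11:58954685-58956674) ranged from 8.65 to 17.5 CPM in wild type (median 13.4) and from 7.80 to 15.7 in Sgo1-/+ (median 9.55), a log2 fold change of -0.29 ± 0.20. Hist2h2be (chr3:96221121-96223738) ranged from 6.93 to 11.6 CPM (median 7.52) and from 6.00 to 11.9 (median 9.28), a change of 0.12 ± 0.20. Both genotypes overlapped for each of these genes. Hist1h2be ranged from 4.65 to 8.57 CPM in wild type (median 7.09) and from 4.53 to 7.16 in Sgo1-/+ (median 5.76), a change of -0.25 ± 0.20. Hist1h2bg ranged from 2.70 to 6.63 CPM in wild type (median 5.14) and from 3.75 to 8.51 in Sgo1-/+ (median 4.42), a change of -0.0063 ± 0.26. None of these differences passed the test. The other 8 replication-dependent genes tested (Hist1h4i, Hist1h2ap, Hist1h2ao, Hist2h2aa2, Hist1h2bf, Hist1h4k, Hist2h2aa1 and Hist1h1e) averaged 1.99 to 4.61 CPM, with log2 fold changes of -0.34 to 0.29, 5 of them above 0.

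H3 and H4 genes carried the extremes of the log2 fold change, at levels of a few CPM. Hist2h3c1 (chr3:96246685-96248509) ranged from 2.63 to 5.53 CPM in wild type (median 4.21) and from 2.08 to 4.03 in Sgo1-/+ (median 2.72). Its log2 fold change of -0.50 ± 0.23 had an adjusted p of 0.517 by edgeR (unadjusted p of 0.0499). Hist1h3d (chr13:23575763-23577011) ranged from 1.79 to 4.04 CPM (median 3.37) and from 0.889 to 4.05 (median 1.59), a change of -0.79 ± 0.37 with an unadjusted p of 0.0521. Sgo1-/+ replicate 2 matched the highest wild type library, and 4 of the 6 Sgo1-/+ libraries lay below all wild type libraries. Hist1h4m (chr13:21811746-21812150) went the other way, from 0.878 to 5.47 CPM (median 3.53) and from 2.58 to 8.29 (median 6.28), a change of 0.83 ± 0.41 with an unadjusted p of 0.0619. Hist4h4 (chr6:136801553-136804431) ranged from 2.98 to 12.8 CPM (median 6.49) and from 1.88 to 8.64 (median 4.20), a change of -0.64 ± 0.39 that was -0.38 without wild type replicate 3 and -0.11 with mitochondrial-like share as a covariate. The linker gene Hist1h1d ranged from 4.14 to 22.1 CPM (median 7.63) and from 1.38 to 8.51 (median 7.99), and its change of -0.50 ± 0.46 was -0.039 without wild type replicate 5.

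In 3 libraries a high mitochondrial-like share stood beside low H3f3a and high Hist4h4 values. The share is that of Gm13340, Gm13341, Gm11410 and AY036118, genes similar to mitochondrial sequence, in the counts of rows with an Ensembl identifier. It was 42.2% to 46.5% in wild type replicates 3 and 5 and Sgo1-/+ replicate 3, and 14.8% to 27.8% in the other 9. Those 3 libraries held the 3 lowest values of H3f3a, 52.7 to 73.6 CPM against 82.6 to 125 in the other 9, and the 3 highest of Hist4h4, 8.64 to 12.8 CPM against 1.88 to 7.85. These were 1 of the 27 members tested in each direction (3.70%), while over all genes tested 8.90% had their 3 lowest and 10.2% their 3 highest values there. Among the cell marker lists, only enteric neuron and glia markers and B and plasma cell markers stood apart in them, and the other lists overlapped. The former summed to 42.5 to 68.2 CPM against 4.18 to 24.7 in the other 9, and the latter to 77.3 to 117 against 31.8 to 67.4. Their part in the histone values was not tested. The mean of the 3 libraries over the mean of the other 9 was 1.48 for H2afj, 1.32 for Hist1h2bc, 2.06 for Hist1h1d, 0.633 for H2afx and 1.01 for H2afy. Without them the change was 0.15 for H2afj. With the share as a covariate it was -0.16 for H3f3a and -0.11 for Hist2h2be. In 4 libraries (wild type 1 and 6, Sgo1-/+ 5 and 6) the column name ends in a suffix of unstated meaning. Within the 8 libraries lacking it and the 4 having it, the difference on the log2(CPM + 0.5) scale was -0.27 and -0.55 for Hist1h2bc, 0.21 and 0.86 for H2afx, 0.34 and 1.90 for Hist1h4m, -0.59 and -0.20 for Hist2h3c1, -0.72 and -0.69 for Hist1h3d, 0.29 and -0.099 for H3f3b, and -0.028 and 0.38 for H3f3a.

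**Figure D5:**
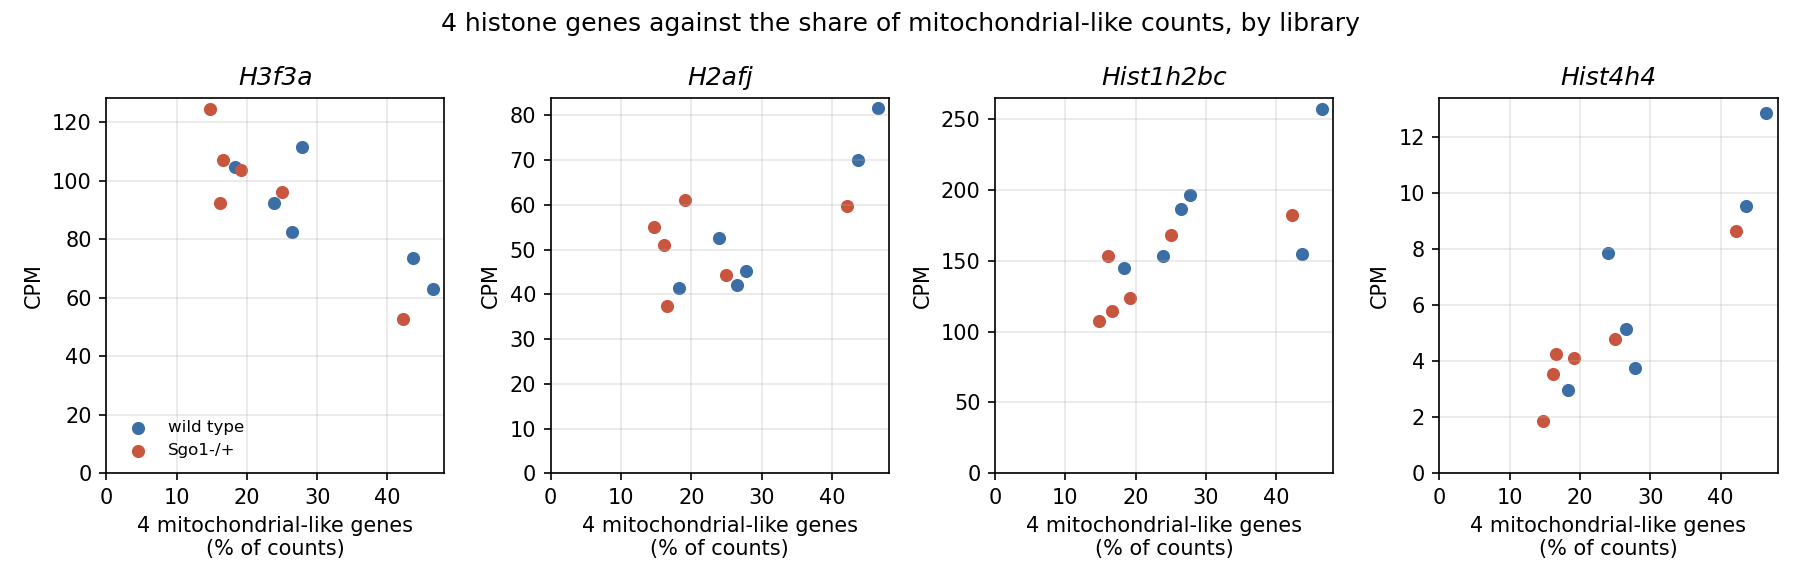
CPM of 4 histone genes (vertical axes, from 0) against the percent of counts in 4 mitochondrial-like genes (horizontal axes), each point a library coloured by genotype. The 3 libraries above 40% have the lowest H3f3a values and the highest Hist4h4 values, and 2 of them are wild type.

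Genes that act on histones were described from lists. Of 37 tested genes of histone mRNA transcription and 3 prime end processing, 24 had a log2 fold change above 0 and 13 below, with a median of 0.064, while their summed level had medians of 1388 CPM in wild type and 1310 in Sgo1-/+. Past an unadjusted p of 0.05 were 2 (5.41%, against 9.65% of all genes), both above 0: Cstf2, a cleavage stimulation factor, at 0.44 ± 0.18, and Cpsf3l, a subunit of the Integrator complex, at 0.44 ± 0.20. Of 35 chaperones and exchange factors 26 were above 0 (74.3%, against 49% of all genes), with a median of 0.15. Of these, 3 passed that threshold (8.57%, against 9.65% of all genes), among them Hjurp, the chaperone of the centromeric histone, at 0.44 ± 0.11 and Atrx, part of the complex that places H3.3 at repeats, at 0.33 ± 0.10. That centromeric histone, Cenpa, averaged 9.83 ± 3.24 CPM (SD) in wild type and 13.5 ± 2.71 in Sgo1-/+, a change of 0.46 ± 0.21, and the linker histone gene H1f0 of resting cells 130 ± 27.4 and 159 ± 21.3, a change of 0.29 ± 0.14. H1f0 was thus in the range of Hist1h1c in CPM. No gene of these lists had an adjusted p under 0.05 by edgeR. The S phase list that follows shares Mcm2, Chaf1a and Chaf1b with the chaperones and Slbp with the processing genes.

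S phase genes were described by their mRNA level in each library, and its relation to replication itself was not tested. Of 38 tested, 33 had a log2 fold change above 0 (86.8%, against 49% of all genes), and the median was 0.26. An unadjusted p under 0.05 by edgeR was found for 6 (15.8%, against 9.65% of all genes in either direction). All 6 were above 0, the direction in which 4.56% of all genes passed. The proliferation marker Mki67 was at 0.54 ± 0.20 and the cyclin gene Ccna2 at 0.51 ± 0.19, with adjusted p of 0.486 for both by edgeR. Summed, they ranged from 395 to 701 CPM in wild type (median 456) and from 508 to 680 in Sgo1-/+ (median 594). Across the 12 libraries the mean log2 level of these genes was set against each of the 19 histone genes given by name with values, and 0 of 19 relations had an adjusted permutation p under 0.05. H2afx had a Pearson r of 0.74 (permutation p 0.00715, adjusted 0.0561) and a Spearman rho of 0.57 (p 0.0576, adjusted 0.219), and r was 0.71 without the 2 libraries farthest from the median and 0.64 within the 8 libraries lacking the suffix. Hist2h2be had an r of 0.73 (permutation p 0.00869, adjusted 0.0561) and a rho of 0.62 (p 0.0337, adjusted 0.210), with r at 0.62 and 0.69 in the same reductions. Hist1h2bc had an r of -0.70 (permutation p 0.0107, adjusted 0.0561) and a rho of -0.73 (p 0.00918, adjusted 0.110), and -0.75 and -0.69. Hist4h4 had an r of -0.70 (permutation p 0.0118, adjusted 0.0561) and a rho of -0.71 (p 0.0116, adjusted 0.110), and -0.77 and -0.79. Within a genotype, r was 0.65 and 0.64 for H2afx, 0.93 and 0.67 for Hist2h2be, -0.69 and -0.47 for Hist1h2bc and -0.60 and -0.75 for Hist4h4, in wild type and Sgo1-/+ respectively. In the 3 libraries of high mitochondrial-like share the S phase level was 2.72, 3.06 and 3.00 log2 units, inside the range of 2.71 to 3.68 in the other 9. Over all 12, however, a higher S phase level went with a lower share. Libraries at 3.24 log2 units or more had a share of 14.8% to 25.0%, and those at 3.06 or less 23.9% to 46.5%. The part of that share in these relations was not tested.

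Whole-series facts bear on these values as follows. The targeted gene, listed as Sgol1, averaged 3.65 ± 1.81 CPM (SD) in wild type and 2.34 ± 0.405 in Sgo1-/+, with overlapping ranges, a log2 fold change of -0.67 ± 0.31 and an adjusted p of 0.517 by edgeR. All 10 epithelial markers were detected and summed to 16128 to 26446 CPM in wild type (median 22518) and 17141 to 26860 in Sgo1-/+ (median 17470). Of the 10, 3 had a log2 fold change above 0 and 7 below, against 49% and 51% of all genes, with a median of -0.054. Adipocyte markers summed to 2.02 to 60.1 CPM in wild type (median 6.49) and to 2.04 to 165 in Sgo1-/+ (median 67.6), and T and NK cell markers to 11.7 to 25.4 and 9.11 to 19.0. The median sum of enteric neuron and glia markers was 20.9 CPM in wild type and 7.29 in Sgo1-/+, with 0 of 2 tested above 0, and that of B and plasma cell markers 63.9 and 47.6, with 0 of 6 above 0. In bulk tissue, fewer cells of a type and less RNA per cell cannot be told apart, and the part of cell makeup in the histone values was not tested.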

How the data were processed

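Per the labels' protocols, purified mRNA of colonic mucosa was made into TruSeq libraries and read on a MiSeq. The submitters' processing notes name build mm10 and DESeq; aligner, counter and strand setting are not given in the sources used. Each library has a deposited column of expected counts (69.6% of values above 0 were not whole, compared exactly) and a column of log2 values made by the authors, which was recomputed from the counts for 100% of 463104 values within 0.001 and not used for tests. Values of histone members above 0 were not whole in 62.5%.

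Counts were rounded. Rows without an Ensembl identifier numbered 505 and held 1.79% to 5.40% of counts; they were dropped, leaving 38087 genes. Genes were filtered with filterByExpr (minimum count 10, minimum total 15), scaled by TMM factors and tested with edgeR 4.0.16 in R 4.3.3 (glmQLFit and glmQLFTest on genotype alone, all 12 libraries), with Benjamini-Hochberg adjustment over 13889 genes and a threshold of 0.05. The procedure was tested on simulated data. SE is the log2 fold change over the square root of the F statistic. CPM used the unrounded counts and TMM-scaled totals. Libraries were never identical, and replicates differed by a chi-square of at least 14.7 per degree of freedom, so none was merged as a repeat of another; this does not show that they came from separate mice.

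Levels per kilobase, stem-loops and shared 50-base words came from GENCODE M21 transcripts matched by Ensembl identifier (70 of 77 members), and promoters from RefSeq, matched by synonym and position. The members and gene lists were chosen with earlier results of these data known, and the relations with the S phase genes, with 100000 permutations, were added after seeing the data. Genes given with values in every library were all variants tested, the 10 replication-dependent genes of highest mean count, and the 3 of smallest p in each direction among those tested. Alternatives were DESeq2 1.42.0, limma-voom 3.58.1, other scalings and filters, the replicate numbers, the suffix, the mitochondrial-like share and leaving out libraries.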

Additional observations from a re-analysis of the deposited data

Results flagged for a closer look

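Among 42 groups of 6 libraries checked, 6 held a library whose gap to its nearest neighbour was past Dixon's 95% critical value for its share of the group's range; chance gives about 1 in 20. H2afv stood at 49.7 CPM in Sgo1-/+ replicate 2, with the other Sgo1-/+ libraries at 29.0 to 35.5 CPM. H3f3b stood at 309 CPM in wild type replicate 5, with the others at 388 to 428 CPM. H2afy was at 85.0 CPM in Sgo1-/+ replicate 1, with the others at 68.8 to 73.3 CPM. Hist1h1d was at 22.1 CPM in wild type replicate 5, with the others at 4.14 to 9.43 CPM. Hist1h2bg was at 8.51 CPM in Sgo1-/+ replicate 5, with the others at 3.75 to 4.77 CPM. Hist2h2be was at 11.6 CPM in wild type replicate 2, with the others at 6.93 to 8.37 CPM.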

How the results depend on the processing

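Counts of called histone genes were 0 under each of the alternatives run, replication-dependent and variant alike. Over all genes the count was 30 with DESeq2, 1 with the suffixed libraries alone and 1 with mitochondrial-like share in the model; the cause was not tested. Scaling by total counts alone, which moved the median of all genes to 0.31, gave medians of 0.20 (replication-dependent) and 0.45 (variant) and differences in summed level of 44.0 and 225 CPM; the suffixed libraries alone gave a variant median of 0.29. Of the 19 genes given with values, 9 kept the sign of their log2 fold change under every setting and 10 under every setting but total counts. The others had these values. Total counts alone: H2afj 0.28, H2afy 0.33, Hist1h1c 0.31, Hist1h2bg 0.33, Hist3h2a 0.024. No filter: H2afy 0.034, Hist1h1c 0.022, Hist1h2bg 0.028. Suffixed libraries: H2afj 0.29, H3f3b -0.11, H2afy 0.072, Hist1h1c 0.040, Hist1h2bg 0.64. Unsuffixed libraries: H3f3a -0.011, Hist2h2be -0.096. Mitochondrial-like share as a covariate: H3f3a -0.16, H2afj 0.13, Hist1h1d 0.0073, Hist1h2bg 0.013, Hist2h2be -0.11. Without the 3 libraries of highest share, chosen after seeing the data: H2afj 0.15, H2afy 0.038, Hist1h1c 0.018, Hist1h2bg 0.034. H2afy, near 0, was also 0.000020 with fractional counts, 0.0017 with limma-voom and 0.0020 with suffix as a covariate. Leaving out 1 library gave -0.17 to 0.044 for H2afj, -0.0036 to 0.17 for H2afv, -0.041 to 0.033 for H2afy, -0.12 to 0.067 for Hist1h1c and -0.22 to 0.098 for Hist1h2bg.

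Same-numbered libraries of the 2 genotypes correlated at -0.30 to 0.45 in their deviations, and 1 of 6 correlated best with its own number. Both libraries of that pair, number 3, had a high mitochondrial-like share. The labels name no pairing, and these correlations cannot exclude one. With a replicate block the count of called genes was 0 and H2afy was 0.00050. At these counts 50 of 77 members did not pass the filter and have no test; whether depth or recovery of the RNA sets their counts was not tested.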

Other observations

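Hist1h2aa, the testis-type H2A gene, did not pass the filter and was picked out after its values were seen. It had 34 counts in wild type replicate 1, 40 in Sgo1-/+ replicate 4, 15 in Sgo1-/+ replicate 3 and 9 in wild type replicate 2, and 0 to 3 in the other libraries. Its divergent partner Hist1h2ba, the testis-type H2B gene, was at 0 in all 12 libraries.

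Histone-named pseudogene rows outside the rule were 8 in number. The best detected of them, H3f3a-ps2, averaged 4.61 counts per library, against 787 for its parent H3f3a.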
